A study of Mus musculus with 8 samples.

Results

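Oxtr encodes the oxytocin receptor, and its RNA was followed in mammary epithelium of pregnant mice that had or had not lost the BMP receptor Bmpr1a. It is 1 of the 55933 genes with a value in the deposited table. The gene was chosen on its values in these same libraries, in which it was higher in the knockout, together with the contractile genes Acta2 and Myh11 and the milk genes Csn2 and Wap. The difference in Oxtr is therefore given as a description, with no test. Mammary epithelial RNA of 4 control and 4 cKO mice was sequenced at pregnancy day 14.5, with 1 library per mouse. All were females of the C57BL/6 background. The cKO mice carried K14-rtTA, teto-Cre and Bmpr1a fl/fl and were given doxycycline in the drinking water until collection. In this system the K14 promoter drives the doxycycline-dependent activator, so that Cre deletes Bmpr1a in the myoepithelial layer. Controls were littermates, which the sample labels call wild type. Which transgenes they carried and whether they drank doxycycline is not given in the sources used here. The glands were digested with collagenase and hyaluronidase, so each library holds the whole epithelial preparation and not sorted myoepithelium. In such bulk RNA, fewer cells of a type and less RNA per cell cannot be told apart.

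Oxytocin is a small peptide hormone released from the posterior pituitary during suckling. In the mammary gland its receptor sits on myoepithelial cells, the contractile outer layer of ducts and alveoli. The receptor couples to Gq proteins and phospholipase C, which raise cytosolic calcium, and calmodulin and myosin light chain kinase then start the contraction that ejects milk.

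Expression was given as FPKM, a count of fragments divided by gene length and by the size of the library. Between 16123108 and 19896988 reads lay on genes per library. Epithelial and contractile markers were abundant in every library, with Krt8 at 1444 to 2109 FPKM, Krt14 at 490 to 850 FPKM and Acta2 at 653 to 1062 FPKM. Bmpr1a itself was 10.1 ± 1.28 FPKM in the control libraries and 11.2 ± 1.01 in the cKO libraries (SD, n = 4 each). Its RNA was not reduced in cKO, but the value sums all exons over all cells of the preparation, and all directions given here rely on the sample labels. Libraries of replicates 1 and 2 of both groups deviated weakly together from their group means, as did those of replicates 3 and 4. Over genes, the correlation of the deviations between a control and a cKO library was 0.0797 to 0.178 within these sets and -0.210 to -0.0720 across them. Deviations from a group mean cancel out, so positive values within sets go with negative ones across them. The Oxtr difference is therefore also given within each set. The sets were read from these correlations and not from the labels, so a test with a block for the sets may give p-values that are too small.

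Oxtr (ENSMUSG00000049112) lies on the minus strand of chromosome 6 of GRCm38, from 112473683 to 112489943. GENCODE vM21 gives it 2 transcripts. Oxtr-201 has 2 exons and a reading frame of 388 codons, and Oxtr-202 starts inside the gene with a frame of 75 codons. Their exons together span 4790 bases, the gene length on which the FPKM are based, and the value sums both transcripts. No other gene in the table overlaps it. The 132 bases directly upstream of its annotated start, read 5′ to 3′ on the gene's strand (RefSeq, GRCm38.p6, chr6:112489944-112490075), are shown to place that start in its sequence.
Oxtr upstream: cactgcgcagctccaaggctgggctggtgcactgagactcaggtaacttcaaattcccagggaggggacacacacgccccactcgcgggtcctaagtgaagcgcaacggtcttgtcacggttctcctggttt
These letters were searched on both strands for 8 motifs, and none matched. They were a full estrogen response element and its core (AGGTCA), a STAT site (TTCNNNGAA), SMAD sites (GTCTAGAC and GGCGCC), an E-box (CACGTG), an AP-1 site (TGANTCA) and the CArG box of serum response factor. Over 32851 upstream windows of the same length, the shares with a match ranged from 0.0304% for the full estrogen response element to 7.61% for its core. Each window held the first 132 bases of a stretch from 250 bases before to 50 bases after a start. Those windows thus stopped short of that start, whereas the Oxtr letters end at the GENCODE start. The missing matches describe the Oxtr letters alone.

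Oxtr was measured at 2.14, 2.82, 2.64 and 2.86 FPKM in control replicates 1 to 4. In cKO replicates 1 to 4 it was measured at 4.36, 7.01, 3.996 and 7.24 FPKM. All 4 cKO libraries lay above all 4 control libraries, and cKO replicates 2 and 4 stood well above cKO replicates 1 and 3. The means were 2.62 ± 0.329 FPKM in control and 5.65 ± 1.71 FPKM in cKO (SD, n = 4 each), which is a ratio of 2.16. On the log2(FPKM + 1) scale the difference was 0.85 over all libraries, 0.92 within replicates 1 and 2 and 0.78 within replicates 3 and 4. The reads behind these values were 178, 234, 212 and 257 in control and 403, 554, 304 and 644 in cKO. Counting error (exact 95% Poisson intervals) reached at most 3.23 FPKM in a control library, in replicate 4, and started at 3.56 FPKM in the lowest cKO library, replicate 3. The intervals of cKO replicates 1 and 3 overlapped each other, as did those of cKO replicates 2 and 4, but not those of the other pair. Of the 15143 genes with a mean of at least 0.5 FPKM, 69 had a larger positive log2 difference than Oxtr.

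**Figure D1:**
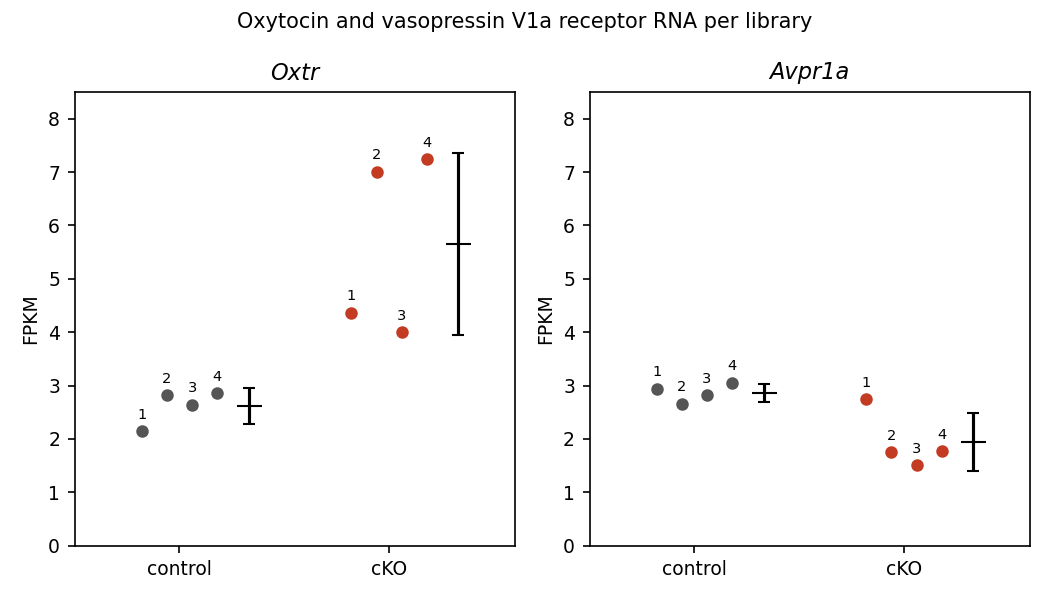
FPKM of Oxtr (left) and Avpr1a (right) in each library, with the replicate number beside each point and the mean ± SD of the 4 libraries of a group as a bar with whiskers. Oxtr ran from 2.14 to 2.86 FPKM in control and from 3.996 to 7.24 FPKM in cKO, whereas Avpr1a ran from 2.66 to 3.05 FPKM in control and from 1.51 to 2.74 FPKM in cKO.

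Oxtr has a close relative in Avpr1a, the vasopressin V1a receptor, which also couples to Gq and can bind oxytocin. Avpr1a was 2.94, 2.66, 2.82 and 3.05 FPKM in control replicates 1 to 4 and 2.74, 1.75, 1.51 and 1.77 FPKM in cKO replicates 1 to 4. Only cKO replicate 1 lay within the control range, and the other 3 cKO libraries lay below it. The log2 difference was -0.41 (SE 0.12) with an adjusted p of 0.147 (limma, Benjamini-Hochberg), so Avpr1a did not pass the adjusted test, although its unadjusted p was under 0.05. Without cKO replicate 1 the difference was -0.53 with an adjusted p of 0.042 (limma), and Avpr1a passed without no other single library. The Oxtr level per Avpr1a level, both in FPKM, was 0.730, 1.06, 0.938 and 0.936 in control and 1.59, 4.01, 2.65 and 4.08 in cKO. The groups did not overlap in this ratio, with means of 0.916 ± 0.137 and 3.08 ± 1.19 (SD, n = 4 each). Oxtr was chosen for its higher cKO values, so the ratio is a description and not a separate result. The hormones were near the limit of detection. Oxt, the oxytocin precursor, had 2 to 5 reads per library (0.399 ± 0.141 FPKM in control, 0.366 ± 0.113 in cKO), and Avp, the vasopressin precursor, had 0 to 4 reads. The remaining vasopressin receptors had at most 1 read (Avpr1b) and 6 reads (Avpr2) in a library, and none of these 4 genes was tested.

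Among 18 receptors, those of oxytocin and vasopressin and others of hormones and mediators that act on contractile cells, Oxtr ranked 6 by mean FPKM in control and 4 in cKO. In control, P2ry2 (a nucleotide receptor, 10.7 FPKM), F2r (the thrombin receptor, 9.50), Ednrb (endothelin, 7.53), Agtr1a (angiotensin II, 4.21) and Avpr1a (2.87) stood above it. The Oxtr and Avpr1a ranges overlapped in control, from 2.14 to 2.86 FPKM and from 2.66 to 3.05 FPKM. In cKO, Oxtr lay next to Agtr1a (3.78 FPKM), whose range of 3.402 to 4.13 FPKM overlapped that of Oxtr from 3.996 FPKM upward. Ednrb, next above it in cKO with 6.57 to 8.86 FPKM, overlapped Oxtr as well. At the low end, Ptgfr, the prostaglandin F receptor, was at most 0.0341 FPKM in every library.

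Receptor signal is switched off by kinases, arrestins and RGS proteins, and oxytocin is cleaved by the aminopeptidase Lnpep. All 10 genes of this receptor handling list passed the filter on low values. For reading the counts, limma gave an adjusted p under 0.05 to 135 of 15143 genes (0.892%), 8.85% were higher and 7.53% lower in cKO at an unadjusted p under 0.05, and 6.1% were higher and 4.6% lower with no overlap between the groups. None of the 10 passed the adjusted test with limma or with limma-voom on recovered reads. At an unadjusted p under 0.05, 0 were higher and 1 was lower, Rgs2, which limits Gq signalling. Rgs2 was 9.47 ± 1.53 FPKM in control and 6.85 ± 1.32 FPKM in cKO (log2 difference -0.42, adjusted p 0.191, limma), with overlapping groups. Lnpep was 5.61 ± 1.14 FPKM in control and 6.66 ± 0.762 FPKM in cKO (adjusted p 0.434, limma). The median log2 difference of the list was 0.05, beside 0.00 over all genes tested.

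Downstream of the receptor, genes that carry the Gq and calcium signal were looked at singly. Plcb3, a phospholipase C that Gq activates, was 7.17 to 7.37 FPKM in control and 7.66 to 8.59 FPKM in cKO, with no overlap (log2 difference 0.14, adjusted p 0.276, limma). Stim1, the calcium sensor of the endoplasmic reticulum, was 3.66 ± 0.0863 FPKM in control and 3.10 ± 0.211 FPKM in cKO (log2 difference -0.18, adjusted p 0.203, limma), also with no overlap. Itpr1, a calcium release channel, was 4.58 ± 1.00 and 3.43 ± 0.400 FPKM with overlapping groups (log2 difference -0.32, adjusted p 0.26, limma). These 3 genes were named for the smallest unadjusted p of their list, each under 0.05. None of them passed the adjusted test by limma or limma-voom. Gnaq, the Gq alpha subunit, was 15.8 ± 1.66 FPKM in control and 17.7 ± 1.11 FPKM in cKO and did not pass the test (adjusted p 0.396, limma). On the log2 scale each of these differences was smaller in size than the 0.85 of Oxtr. Because Oxtr was chosen for its difference, that comparison says little about these genes.

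The contractile machinery that Oxtr acts on was measured by 15 genes, all of which passed the filter. Acta2, smooth muscle actin, was 653, 718, 949 and 981 FPKM in control and 719, 983, 1047 and 1062 FPKM in cKO. Myh11, smooth muscle myosin, was 70.8, 71.9, 87.7 and 87.1 FPKM in control and 63.2, 69.5, 73.7 and 94.5 FPKM in cKO. Both genes overlapped between the groups, and in both the control replicates 3 and 4 lay above the control replicates 1 and 2. Their log2 differences were 0.21 for Acta2 and -0.08 for Myh11. Over the list, 7 genes had a higher and 8 a lower mean, with a median log2 difference of -0.05. None was higher at an unadjusted p under 0.05, and 2 were lower, Smtn and Des. Smtn (smoothelin, an actin-binding protein of contractile cells) was 51.5 ± 3.75 FPKM in control and 42.3 ± 2.21 FPKM in cKO (log2 difference -0.28, adjusted p 0.105, limma). Des (desmin, the muscle intermediate filament) was 2.55, 2.48, 3.15 and 2.57 FPKM in control and 1.81, 1.03, 1.69 and 1.64 FPKM in cKO, with no overlap. Its log2 difference was -0.54, with an adjusted p of 0.0717 by limma and 0.0485 by limma-voom, so that limma called 0 contractile genes and limma-voom 1. With a block for the sets of replicates, limma's adjusted p was 0.0363 for Smtn and 0.0448 for Des. The sets were read from these data, and a block by replicate number gave 0.0633 and 0.0719 (limma). Of the 4 genes for serum response factor and its coactivators, 3 were tested, and none was called by limma, by limma-voom or at an unadjusted p under 0.05.

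The level of Oxtr was next set against the contractile, keratin and milk genes of the same library. Per 1000 FPKM of Acta2, Oxtr was 3.28, 3.93, 2.78 and 2.91 FPKM in control and 6.06, 7.13, 3.82 and 6.82 FPKM in cKO, where cKO replicate 3 fell below control replicate 2. Per 1000 FPKM of Myh11 it was 33.1 ± 4.27 FPKM in control and 75.2 ± 19.5 FPKM in cKO (SD, n = 4 each), with no overlap. Per 1000 FPKM of Krt14, the myoepithelial keratin, it was 3.50 ± 0.501 and 10.03 ± 3.58 FPKM, again with no overlap. Oxtr was chosen for being higher in cKO, and the Myh11 and Krt14 means were not higher there. The higher ratios to these genes largely follow from that choice, and the ratio to Acta2 overlapped. Relative to Krt5 (20.9 and 45.2 FPKM per 1000) and to the luminal keratin Krt8 (1.498 and 3.29 FPKM per 1000) the groups did not overlap either. Relative to milk genes the picture differed. Per 1000 FPKM of Csn2, Oxtr was 1.59 ± 0.178 FPKM in control and 1.71 ± 0.580 FPKM in cKO, and per 1000 FPKM of Wap it was 77.6 ± 29.4 and 33.5 ± 14.5 FPKM, with overlap in both.

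**Figure D2:**
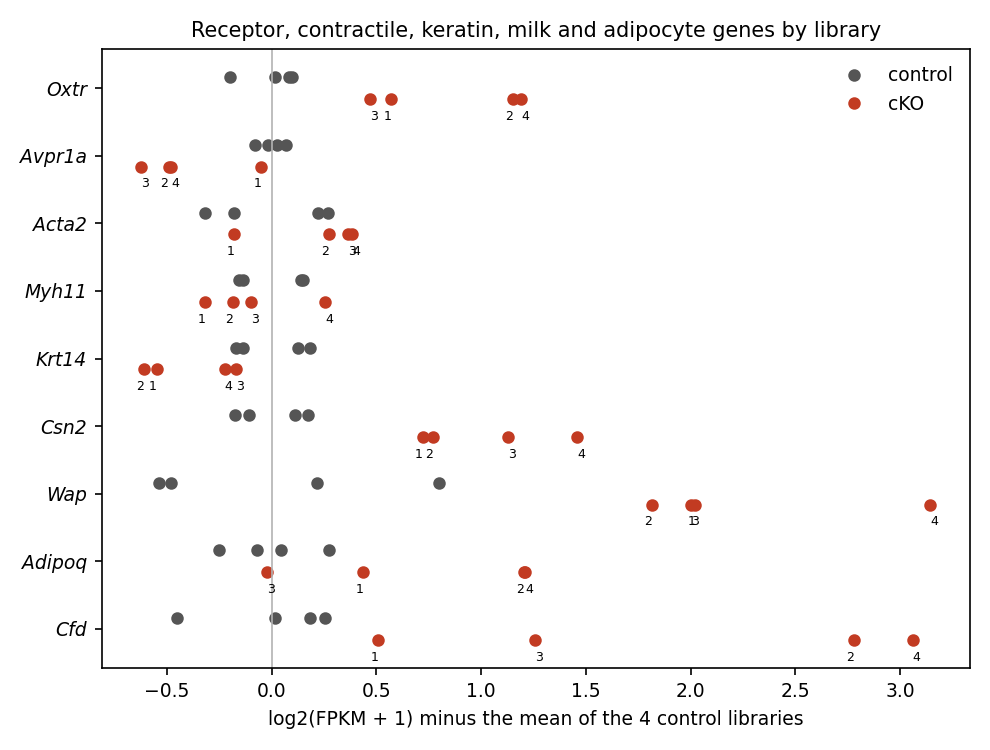
Log2(FPKM + 1) of 9 genes in each library minus the mean of the 4 control libraries, with control libraries in grey above and cKO libraries in red below, the latter with their replicate numbers. In Oxtr, Csn2, Wap and Cfd every cKO library lies to the right of every control library, while Acta2, Myh11, Avpr1a, Krt14 and Adipoq overlap.

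Other contraction receptors and contraction-associated genes were listed beside Oxtr. Of 17 genes, 10 passed the filter, 3 had a higher and 7 a lower mean in cKO, 0 were higher and 4 were lower at an unadjusted p under 0.05, and none passed the adjusted test by limma or limma-voom. The 4 were Ptgs2, which makes prostaglandin precursors (25.04 ± 1.00 and 16.9 ± 7.64 FPKM), Gja1, the gap junction protein connexin 43 (37.6 ± 1.73 and 32.0 ± 3.34 FPKM), the nucleotide receptor P2ry1 (1.38 ± 0.257 and 0.898 ± 0.214 FPKM) and the bradykinin receptor Bdkrb2 (2.11 ± 0.447 and 1.49 ± 0.236 FPKM). Ptgs2 was 28.2 FPKM in cKO replicate 1, above every control, and 11.7 to 14.9 FPKM in the other cKO libraries. Its log2 difference was -0.62 with all libraries (adjusted p 0.223, limma) and -0.89 without cKO replicate 1 (adjusted p 0.0114, limma). Gja1 was the only gene of the 4 without overlap between the groups.

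Keratin and adhesion genes of the basal layer, where myoepithelial cells lie, were measured beside Oxtr. At an unadjusted p under 0.05, 4 of 8 were lower in cKO and 1 was higher, with none past the adjusted test by limma or limma-voom and a median log2 difference of -0.29. Snai2, a transcription factor of basal cells, was 12.2 ± 1.19 FPKM in control and 8.59 ± 1.31 FPKM in cKO (adjusted p 0.0901, limma), and Trp63, the basal cell regulator p63, was 3.58 ± 0.576 and 2.45 ± 0.594 FPKM (adjusted p 0.181, limma). Krt14 was 753 ± 93.7 and 577 ± 88.9 FPKM, and the cadherin Cdh3 was 21.4 ± 0.875 and 18.2 ± 1.31 FPKM. The higher gene was the integrin Itgb4, at 16.2 ± 0.701 and 18.3 ± 1.32 FPKM. Krt5 was 126 ± 12.6 and 128 ± 18.5 FPKM (adjusted p 0.941, limma). With a block for the sets of replicates, limma's adjusted p was 0.0187 for Krt14, 0.0456 for Trp63 and 0.0498 for Krt17, another basal keratin, each lower in cKO. The sets were read from these data, which can make such p-values too small. A block by replicate number gave 0.0607, 0.0812 and 0.0642 (limma), all above the threshold.

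Milk genes, which luminal alveolar cells make, were set beside Oxtr. Csn2 (beta-casein) was 1.02 higher and Wap (whey acidic protein) 2.25 higher on the log2 scale, and these 2 were named with Oxtr when it was chosen. Of the 8 other genes of the list, 7 were higher at an unadjusted p under 0.05 and 2 rose at an adjusted p under 0.05 by limma, against 5 by limma-voom and 5 by limma with the block for the sets. The 2 were Csn1s2a, a casein (2041 ± 451 and 5581 ± 1710 FPKM, adjusted p 0.0377), and Muc15, a mucin of the milk fat globule (73.1 ± 3.03 and 142 ± 27.3 FPKM, adjusted p 0.0266). Lalba, a subunit of the lactose-making enzyme, did not pass the test, with 15.9 to 30.5 FPKM in control and 14.5 to 86.8 FPKM in cKO. All 8 had a higher mean in cKO, with a median log2 difference of 0.86. With fewer libraries these calls were often lost while the differences stayed near their size. Csn1s2a lost its call without any single library but cKO replicate 1, and Muc15 without any control library or cKO replicate 2. Over all 8 fits with a library left out, whether or not the call was lost, the log2 difference was 1.24 to 1.56 for Csn1s2a (1.43 with all libraries) and 0.81 to 1.01 for Muc15 (0.94 with all libraries). Among 6 luminal markers, 1 was higher at an unadjusted p under 0.05. This was Elf5, the alveolar transcription factor, at 18.1, 17.8, 24.7 and 24.7 FPKM in control and 31.9, 33.7, 38.8 and 49.8 FPKM in cKO (log2 difference 0.82, adjusted p 0.0591 by limma and 0.0239 by limma-voom, and 0.00651 by limma with the block for the sets). The highest Elf5 and Csn2 values were in cKO replicate 4, as for Oxtr, but cKO replicate 2 was not high in Csn2 (2802 FPKM, beside 3601 in cKO replicate 3).

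**Figure D3:**
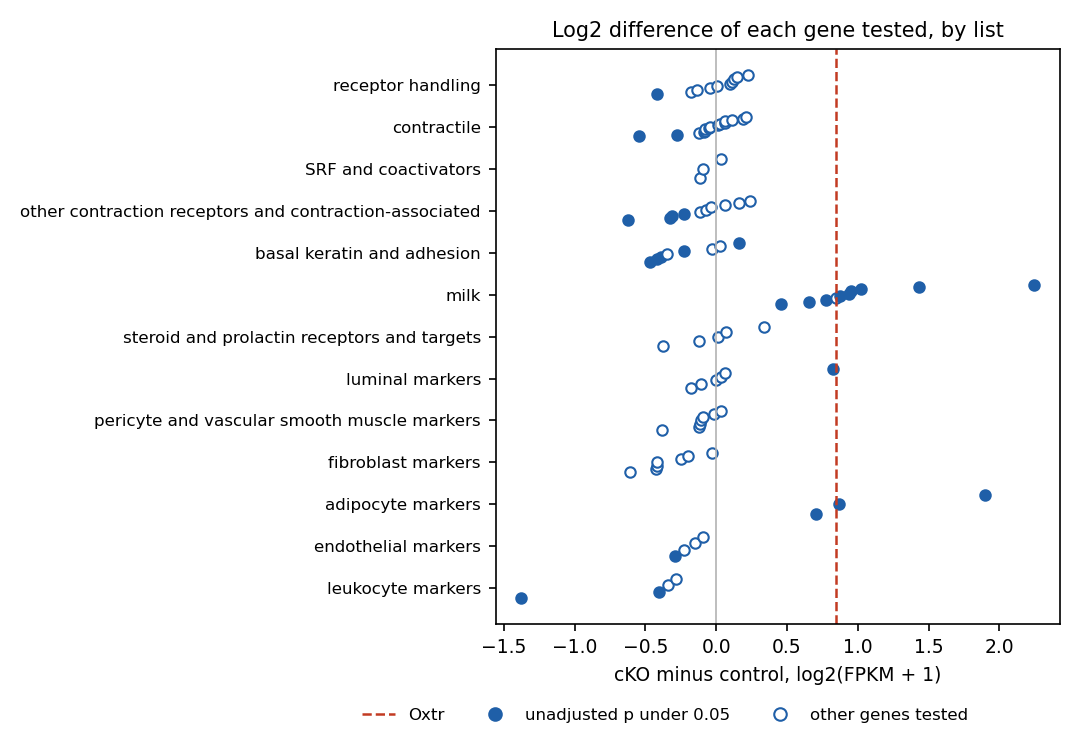
Log2 difference, cKO minus control, of every gene that passed the filter on low values in 13 lists, with genes at an unadjusted p under 0.05 filled and the difference of Oxtr (0.85) as a dashed line. Apart from the milk and adipocyte genes and Elf5, no gene lies near or beyond the Oxtr line on the positive side. The line marks a gene that was chosen for its difference.

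Markers of cells other than epithelium were measured beside Oxtr, and the part of these cells in the Oxtr difference was not tested. The sum of 5 adipocyte markers was 3.4, 1.7, 3.5 and 2.8 FPKM in control and 5.2, 23.5, 7.9 and 28.8 FPKM in cKO. It was highest in cKO replicates 2 and 4, the libraries with the most Oxtr. Cfd (adipsin) made up most of it, at 1.19 to 2.57 FPKM in control and 3.26, 19.5, 6.15 and 23.9 FPKM in cKO. Adipoq (adiponectin) was 0.334, 0.0836, 0.562 and 0.231 FPKM in control and 0.750, 1.98, 0.274 and 1.99 FPKM in cKO. All 3 markers tested were higher at an unadjusted p under 0.05, and only Cidec, a lipid droplet protein, rose at an adjusted p under 0.05 (0.386 ± 0.0668 and 1.56 ± 0.549 FPKM, adjusted p 0.0377, limma), a call lost without any single library but cKO replicate 1 and with the replicate block (adjusted p 0.0727, limma). The Cidec log2 difference stayed near its size, at 0.86 with all libraries and 0.74 to 0.97 with each library left out. Plin1 and Lep stayed at or under 0.371 FPKM in every library. In cKO replicate 3, the sum, Cfd and Cidec were above every control and Adipoq was within the control range. Without cKO replicates 2 and 4 the Oxtr log2 difference was 0.52 in place of 0.85. These libraries also held the most Oxtr, so leaving them out had to shrink its difference and says nothing about adipocyte RNA.

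**Figure D4:**
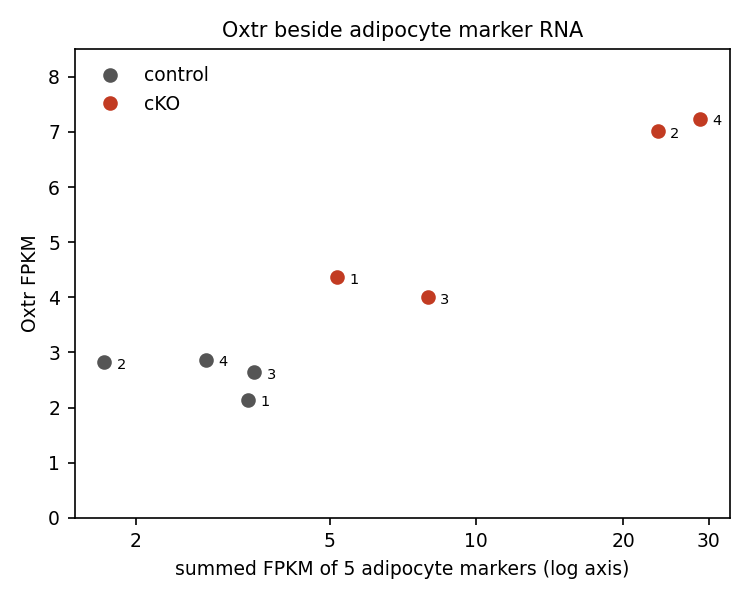
Oxtr FPKM against the summed FPKM of 5 adipocyte markers (log axis) in each library, control in grey and cKO in red, with replicate numbers. The cKO replicates 2 and 4 are highest on both axes, and cKO replicates 1 and 3, at 4.36 and 3.996 FPKM of Oxtr, lie above the controls.

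Vascular smooth muscle also holds contractile genes, and stromal cells surround the epithelium. None of the 7 pericyte and vascular smooth muscle markers tested passed an unadjusted p of 0.05 or the adjusted test by limma or limma-voom, and the summed level of all 8 genes of the list was 63.4 to 79.9 FPKM in control and 47.5 to 74.7 FPKM in cKO. All 7 fibroblast markers had a lower mean in cKO (median log2 difference -0.42), with none past either threshold and sums of 470 to 991 FPKM in control and 316 to 765 FPKM in cKO. Of 4 endothelial markers 1 was lower at an unadjusted p under 0.05, Pecam1 (24.2 ± 1.82 and 19.8 ± 3.42 FPKM), and of 4 leukocyte markers tested 2 were lower, the B cell gene Cd79a (5.84 ± 5.81 and 1.02 ± 0.270 FPKM) and the macrophage gene Adgre1 (4.12 ± 0.631 and 2.87 ± 0.552 FPKM). Without control replicate 3 the Cd79a log2 difference was -0.87 in place of -1.38. No adjusted call was made in these lists by limma or limma-voom. In each of these 4 lists the library with the highest sum was a control, and their part in the Oxtr difference was not tested.

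Genes around Oxtr on chromosome 6 were also measured. Within 200 kb there were 11 other genes, of which 4 passed the filter (Lmcd1, Rad18, Gm15519 and Gm5578), and none passed an unadjusted p of 0.05 or an adjusted test by limma or limma-voom. Lmcd1, a LIM domain protein, was 3.30, 3.54, 4.35 and 4.80 FPKM in control and 3.65, 4.28, 5.06 and 7.50 FPKM in cKO (log2 difference 0.27, adjusted p 0.52, limma). Rad18, a DNA repair ubiquitin ligase, had a log2 difference of -0.07 (adjusted p 0.83, limma). The nearest gene, the muscle caveolin Cav3, ends 810 bases from Oxtr on the opposite strand and stayed between 0.0931 and 0.381 FPKM, with 2 to 7 reads.

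The genes most like Oxtr over the 8 libraries were found by the root mean square difference of centred log2(FPKM + 1) among 11065 protein-coding genes with a mean of at least 1 FPKM. The median gene differed from Oxtr by 0.504. Closest were Timd2, a ferritin receptor (0.167), Cyp1b1, a cytochrome P450 (0.169), and Madcam1, an addressin for lymphocytes (0.188). They were followed by Orm1, a plasma acute-phase protein (0.204), Muc15 (0.205), the fatty acid transporter Cd36 (0.205), the chemokine Ccl9 (0.206), the copper carrier Cp (0.215), the ferritin chain Fth1 (0.220) and the casein Csn1s1 (0.227). Timd2 was 5.88, 6.35, 6.03 and 6.26 FPKM in control and 9.84, 10.8, 8.09 and 12.5 FPKM in cKO. Madcam1 was 2.57, 2.17, 3.37 and 3.71 FPKM in control and 4.26, 9.12, 4.60 and 7.39 FPKM in cKO. As for Oxtr, cKO replicates 2 and 4 were the highest libraries in both, and the likeness is a description of these 8 libraries that includes the group difference itself.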

How the data were processed

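RNA-seq libraries of 4 control and 4 cKO mice were analysed from the gene table of the series. The authors mapped reads with Hisat2 and deposited FPKM for 55933 genes, with no columns of comparisons. The submitters' processing notes name featureCounts 1.5.0-p3, StringTie 1.3.3b and mm9, but 55394 gene identifiers are in GENCODE vM21 (GRCm38), 99.7% with the same coordinates. Every value above 0 corresponded to whole reads (100%, tolerance 0.01 of a read), and the implied library sizes already contain median-of-ratios size factors. Whether reads were counted by strand is not given in the sources used here.

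Differences were tested with limma 3.58.1 in R 4.3.3 (trend, Benjamini-Hochberg) on log2(FPKM + 1) for the 15143 genes that averaged 0.5 FPKM or more. This scale understates the change of low genes. Duplicate libraries were checked (chi-square per degree of freedom at least 8.92 in every pair of a group). Read intervals cover counting error only, and the number of mice limits the group means. The procedure was tested on simulated reads with a fixed dispersion of 0.02 and no sets of replicates, a simpler setting than these libraries. Python 3.11.15, pandas 2.3.3, scipy 1.17.1 and matplotlib 3.10.9 were used for other steps.

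Oxtr, its companions and the 15 lists (137 genes with Oxtr counted) were chosen with earlier results of these data known. The count over 1 of these lists is not reported here. Named genes are those companions, the hormones and receptors, of each list every gene with an adjusted p under 0.05 and otherwise up to 4 with the smallest unadjusted p, genes within 200 kb and the 10 most like Oxtr; Lnpep, Gnaq, Krt5, Krt8, Krt17, Itgb4, Pgr, Plin1, Lep and Lalba were added after their values were seen. Alternatives were a pseudocount of 0.1, no filter, a mean FPKM of at least 1, no trend, TPM scaling, limma-voom on recovered reads, blocks by replicate number or by set, and each library left out in turn.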

Additional observations from a re-analysis of the deposited data

Results flagged for a closer look

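In the groups of 4 libraries examined (116, for the genes described here), 11 held a library that stood apart from the other 3 by Dixon's criterion, and chance gives about 1 in 20 groups, or 5.8. None of them was a group of Oxtr. In the cKO group, replicate 4 was apart for Wap (323 FPKM, others 128 to 148), Orm1 (2.78 FPKM, others at most 1.47) and Fth1 (1019 FPKM, others 658 to 695), and it was also the library with the most Oxtr. Bdkrb2 stood apart in cKO replicate 2 (1.84 FPKM, others 1.33 to 1.42).

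In the control group, replicate 3 was apart for Des (3.15 FPKM, others 2.48 to 2.57), Csn1s2b (0.687 FPKM, others 0.352 to 0.380) and the Oxtr neighbour Ssu2 (0.164 FPKM from 7 reads, others 0 to 0.0227), and replicate 2 for P2ry1 (0.996 FPKM, others 1.48 to 1.54). The other 3 values rest on 1 read each. Avpr1b was 0.0129 FPKM in cKO replicate 1, Gm23002 was 0.539 FPKM in control replicate 1 and Gm44193 was 0.0240 FPKM in cKO replicate 2, with 0 in the other libraries of the group.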

How the results depend on the processing

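The Oxtr log2 difference of 0.85 was 0.80 under TPM scaling, 1.07 by limma-voom, 1.04 with a pseudocount of 0.1 and 0.73 to 0.97 with each library left out. Leaving out cKO replicates 2 and 4, chosen after seeing the data for their adipocyte RNA, gave 0.52 and 0 genes with an adjusted p under 0.05. Those libraries also held the most Oxtr, so a smaller Oxtr difference was fixed by that choice. The 135 adjusted calls became 252 by limma-voom, 10 with no filter and 0 to 78 with each library left out (0 without control replicate 4). The replicate numbers did not pair the libraries (same-number correlations 0.0797 to 0.137, 3 of 8 libraries closest to their own number). With the replicate block the adjusted calls were 50, and with a block by set 442, where the sets were read from these same data. Contractile genes lower numbered 2 to 3 and milk genes higher 8 to 10 under the alternatives, in lists that include the companions named with Oxtr. No difference of the 32 single genes reversed, but Csn1s2a, Muc15 and Cidec, which had an adjusted call and were not companions, lost it with no filter or without cKO replicates 2 and 4, and Cidec also with the replicate block (adjusted p 0.0727, limma). Avpr1a and Ptgs2 gained an adjusted call without cKO replicate 1. The cause of these shifts was not tested, except that no filter adds genes to the adjustment and left-out libraries reduce the samples. Depth limits Oxt, Avp, Avpr1b and Avpr2, with at most 6 reads in a library.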

Other observations

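Steroid and prolactin receptors and some of their target genes were measured as a list of 8 genes, of which 5 passed the filter and none was called by limma, by limma-voom or at an unadjusted p under 0.05. Esr1, the estrogen receptor, was 0.905 ± 0.119 FPKM in control and 0.754 ± 0.175 FPKM in cKO (SD, n = 4 each). Pgr, the progesterone receptor, was 1.02 ± 0.222 and 1.05 ± 0.276 FPKM, and Prlr, the prolactin receptor, was 1.87 ± 0.242 and 2.02 ± 0.274 FPKM. Their log2 differences were -0.12, 0.01 and 0.07, with overlap between the groups in each. The estrogen target Areg, a growth factor, was 19.6 ± 6.25 and 14.5 ± 2.67 FPKM, and Tnfsf11, the progesterone-induced RANK ligand, was 1.29 ± 0.569 and 1.89 ± 0.683 FPKM.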
